A study of Rattus norvegicus with 6 samples.

Results

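Pim3 and Pim1 encode a pair of serine/threonine kinases of the Pim family. They were read as all probe sets of the array that the platform annotation assigns to the symbol Pim1 or Pim3 alone. That gave 1 probe set for each, so the members are 2 of the 10411 genes that the array reads by a symbol of their own. Both genes were chosen with their diet difference known, so their diet differences are given as descriptions, without a test. The study asked what chronic ethanol consumption does to the rat pancreas. It hybridised total pancreatic RNA to 3 arrays for an ethanol diet and 3 arrays for a control diet. Each array was read as 1 rat. The labels give no strain, age or sex for either group, and neither the composition nor the duration of the diets.

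Pim kinases have no regulatory subunit and are active as soon as they are translated, so their activity follows how much of the protein is made and how long it lasts. Their transcription is induced by cytokine receptors that signal through JAK kinases and STAT factors, and also by NF-kB. The proteins are held by the chaperone Hsp90 and are lost after dephosphorylation by the phosphatase PP2A. Substrates include the death factor Bad, the cell cycle inhibitors Cdkn1a and Cdkn1b, Foxo factors and regulators of cap-dependent translation. Pim1 was found through its cooperation with Myc in mouse lymphoma, and Pim3 has been studied in human pancreatic cancer cells, where it acts on Bad. Kinase activity and protein were not measured here. The remaining family member, Pim2, was not analysed here.

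In RefSeq's annotation of the GRCr8 rat assembly, Pim3 lies at chr7:121822076-121836257 and Pim1 at chr20:7556496-7560747. The array's own build is not given, and the genes were placed by their gene identifiers. The 250 bases before the annotated start of a Pim3 transcript, chr7:121832795-121833044 on the plus strand, are shown because Pim3 carries the diet difference. RefSeq holds 2 transcript models of Pim3, and the gene's outer start lies 10969 bases before this start. The window has a GC content of 67.2%, against a median of 51.2% over the same window of 33469 rat genes. Capitals mark the letters of the motifs that were found.

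Pim3: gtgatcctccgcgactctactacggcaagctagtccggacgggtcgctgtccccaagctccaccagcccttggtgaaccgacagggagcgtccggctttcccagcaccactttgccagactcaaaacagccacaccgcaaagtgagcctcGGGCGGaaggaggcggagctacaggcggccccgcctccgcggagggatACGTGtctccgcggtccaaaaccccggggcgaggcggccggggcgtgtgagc

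Both strands were searched for the 10 motifs named here. One GGGCGG, the core of the GC box bound by Sp1, begins 100 bases before the start, and 30.5% of all such windows hold it. One ACGTG, a form of the core of the hypoxia response element, begins 52 bases before the start, and 16.6% of windows hold it. The other form, GCGTG, was not searched for, and it stands in lower case near the end of the window. The other 8 were not found in this window. They were the STAT motif TTCNNNGAA (7.67% of windows), the NF-kB motif (6.33%), the Ets motif CCGGAA (12.6%), the cyclic AMP response element TGACGTCA (1.59%), the AP-1 motif TGANTCA (6.34%), the heat shock pair GAANNTTC (7.23%), the E-box CACGTG (5.59%) and TATAAA (12.9%). Every CACGTG also holds an ACGTG. These matches describe letters in 1 short window, not binding. For Pim1 the annotated start lies 3 bases before an ATG, so the bases before it may belong to the transcript, and no window was searched.

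Pim3 transcript was higher in the ethanol-fed rats. Its intensity was 7436, 8687 and 8191 in ethanol replicates 1, 2 and 3, against 2283, 2905 and 2327 in control replicates 1, 2 and 3. The groups did not overlap, and the lowest ethanol array was 2.56 times the highest control array. An arrangement with ethanol higher and no overlap was seen on 11.1% of the 9520 probe sets above the intensity filter, and nothing is read from this for a gene chosen on the same contrast. Means were 8105 ± 630 in ethanol rats and 2505 ± 347 in control rats (SD, n = 3 each), a ratio of 3.24. On the log2(intensity + 50) scale, used from here on for differences, the values were 12.99 ± 0.11 in ethanol rats and 11.31 ± 0.19 in control rats (SD, n = 3 each). The difference, ethanol minus control, was 1.68 (SE 0.16, 95% interval 1.32 to 2.04). It was the 12th highest of the 9520 probe sets. With each of the 6 arrays left out in turn it ran from 1.62 to 1.79.

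The rats within a diet were alike in Pim3. The highest ethanol array was 1.17 times the lowest, and the highest control array was 1.27 times the lowest. The pooled SD within diets was 0.16 on the log2 scale, where the median of the tested probe sets was 0.22. That median is not matched for intensity, as the mean log2 value of Pim3 was above that of 96.2% of probe sets. Pim3 was also chosen on this contrast, so its small spread is not read as a trait of the gene.

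Pim1 was dim and gave no such separation. Its intensity was 185, 101 and 308 in ethanol replicates 1, 2 and 3, against 162, 176 and 97 in control replicates 1, 2 and 3. The groups overlapped: ethanol replicate 3 was the highest of all arrays, and ethanol replicate 2 was below 2 of the 3 control arrays. Means were 198 ± 104 in ethanol rats and 145 ± 42.2 in control rats (SD, n = 3 each). Its mean log2 value of 7.72 lay under the intensity filter, whose lowest passing probe set had 8.79, so of the 2 members Pim3 alone was in the tested set. In a fit of all 15866 probe sets the Pim1 difference was 0.28 (SE 0.36, 95% interval -0.63 to 1.20). That interval holds 0 and also a doubling, so these arrays do not settle whether Pim1 differed. The difference was 0.60 without ethanol replicate 2, 0.09 without control replicate 3 and -0.03 without ethanol replicate 3. The pooled SD of Pim1 within diets was 0.50, close to the median of 0.56 over the 1145 probe sets whose mean log2 value was within 0.25 of its own.

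**Figure D1:**
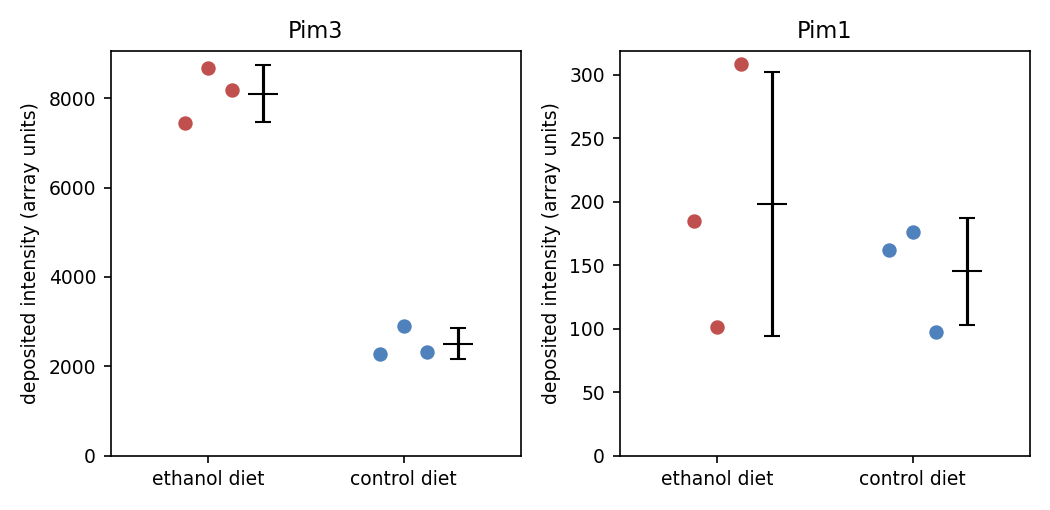
Deposited intensity (array units, linear axis from 0) of Pim3 on the left and Pim1 on the right, with 1 point for each rat and a bar for the mean ± SD of 3 rats. The Pim3 values of ethanol rats sit between 7436 and 8687 and those of control rats between 2283 and 2905, while the Pim1 values of the diets overlap.

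Pim3 and Pim1 correlated weakly from rat to rat. Over the 6 arrays their log2 values correlated with r = 0.33, and after the diet means were taken out with r = 0.05. These are descriptions over arrays that share hybridisation and scaling, and the weak signal of Pim1 limits them. Whether the diet difference of Pim3 differed from that of Pim1 was not tested, since both were chosen on it.

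The arrays had nearly the same distribution, with medians of 543 or 544. Over the whole table limma called 39 of 9520 probe sets at an adjusted p under 0.05, which is 0.410%. Acinar markers were bright in both diets: their summed intensity ran from 1397306 to 1454757 in ethanol rats and from 1377171 to 1402758 in control rats. Of 9 marker lists, summed intensities did not overlap for 4. A background share for such sums was not computed, and a bright gene can carry a sum. The erythroid sum over 5 of 8 listed genes was 25817 to 33618 in ethanol rats, against 15625 to 23125 in control rats. The adipocyte sum over 5 of 6 genes was 8211 to 9335 in ethanol rats, against 4602 to 7038 in control rats. Its brightest gene, Lpl, read 4116 to 7065 in ethanol rats and 2255 to 4353 in control rats, which overlap. The lymphocyte sum over 8 of 10 genes was 2092 to 2480 in ethanol rats, against 1533 to 2008 in control rats, with 1 of the 8 above the filter and Cd8a at or below 0 on some arrays. The duct cell sum over 5 of 7 genes was 9578 to 10877 in ethanol rats, against 10999 to 11613 in control rats. Most of it was Muc1, at 7234 to 7654 in ethanol rats and 8542 to 9442 in control rats. The other duct cell genes overlapped between diets, with higher ethanol means for Car2 and Krt19 and lower ones for Spp1 and Krt7. Sums of islet, fibroblast, endothelial and myeloid markers overlapped between diets, and Vwf, S100a8 and S100a9 were at or below 0 on some arrays. No marker passed limma's test. Before adjustment 7 of 43 tested markers had a p below 0.05, where 18.8% of all tested genes had one. The part of these cell types in the Pim3 difference was not tested, and in whole tissue more Pim3 per cell and more cells that express it cannot be told apart.

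The 7 markers with an unadjusted p below 0.05 lay in the erythroid, adipocyte and acinar lists. Log2 differences of the 2 brightest tested markers were 0.80 for Hbb and 0.64 for Hba-a3 among erythroid markers, and 0.77 for Lpl and -0.13 for Fabp4 among adipocyte markers. Chosen after their values were seen, the erythroid Alas2 differed by 0.58 (SE 0.19) and the adipocyte Cfd by 0.69 (SE 0.21), with no overlap of the diets in either. They were -0.27 for Muc1 and 0.45 for Car2 in duct cells, and -0.10 for Cd4, the lone tested lymphocyte marker. For acinar cells they were 0.02 for Cpa1 and 0.10 for Pnlip, both near the top of the intensity range. Chosen likewise, a pair of dimmer acinar markers lay apart in opposite directions and did not pass. The amylase Amy1 differed by -0.90 (SE 0.15, limma adjusted p = 0.0524) and the acinar transcription factor Ptf1a by 0.45 (SE 0.14, limma adjusted p = 0.161), with no overlap of the diets in either. The brighter amylase Amy2a3 differed by 0.07 with overlapping groups (limma adjusted p = 0.821). Of the 13 tested acinar markers, 4 lay apart with ethanol higher and 1 with ethanol lower, beside 11.0% and 15.4% of all tested genes. Islet Ins1 (-0.17) and Ins2 (-0.09), fibroblast Col3a1 (-0.05) and Dcn (-0.14), endothelial Kdr (-0.18) and Eng (0.15), and myeloid Lyz2 (0.02) and Csf1r (0.04) made up the rest.

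The genes around the Pim kinases were read as 7 lists ordered by role. They named 199 genes, of which 166 had a probe set of their own and 126 were above the intensity filter. The other 40 were too dim to test. Of the 126, limma called 0 higher and 1 lower, the cell cycle kinase Wee1, where 0.436% of all 7106 tested genes were called, 0.0704% higher and 0.366% lower. Before adjustment, with a p below 0.05, 14 were higher and 16 lower. These are 11.1% and 12.7% of the 126, beside 7.66% and 11.2% of all tested genes. The diets did not overlap for 17 genes with ethanol higher and 21 with ethanol lower, arrangements seen in 11.0% and 15.4% of all tested genes. The median difference of the 126 was -0.01, as it was over all tested genes. The number of calls among them therefore sat near the background.

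**Figure D2:**
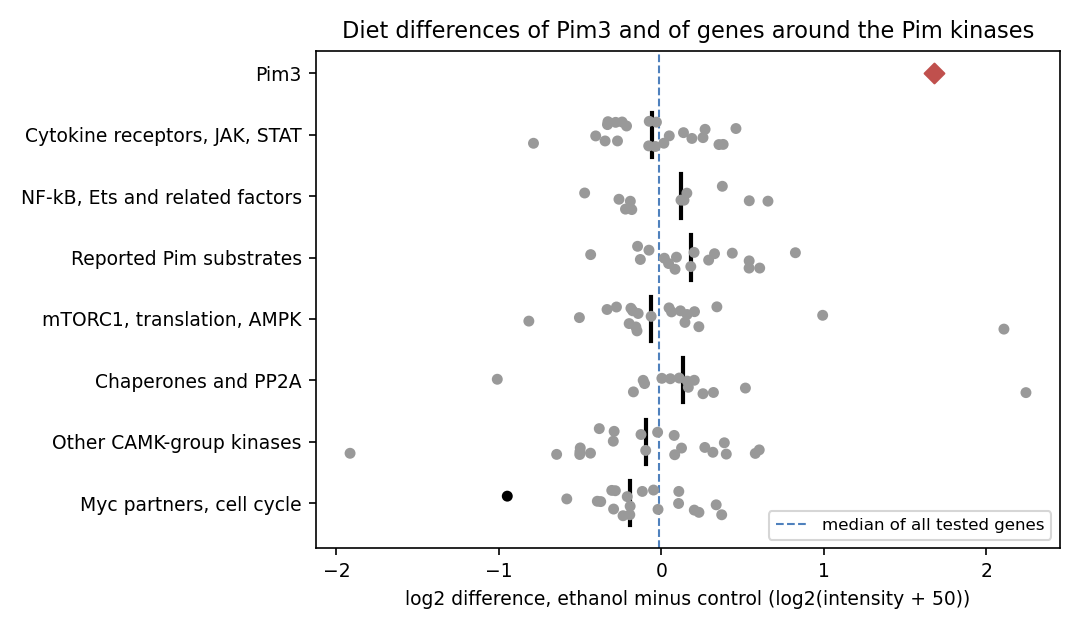
Log2 difference between ethanol and control, on the log2(intensity + 50) scale, of Pim3 (diamond) and of each tested gene in 7 lists (points), with list medians as black bars and the median of all tested genes as a dashed line. The black point is Wee1, the gene that passed limma's test, and list medians lie between -0.19 and 0.18, far left of Pim3 at 1.68.

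Upstream of the kinases, none of the 22 tested cytokine receptors, JAK kinases, STAT factors and inhibitors passed limma's test. Before adjustment, 1 was higher and 3 were lower with a p below 0.05, beside 7.66% and 11.2% of all tested genes. The list median was -0.06. The ligand Il6, the receptor Lifr, the kinase Jak2, the factor Stat5b and the inhibitor Socs2 were under the intensity filter. Pias3, an inhibitor of STAT3, read 680, 698 and 692 in ethanol rats, against 1011, 1230 and 1481 in control rats. Its groups did not overlap (log2 difference -0.79, SE 0.17, limma adjusted p = 0.0877). Csf2rb, the shared receptor chain for interleukin 3 and related cytokines that induce Pim1 in blood cells, read 1363, 1300 and 1367 in ethanol rats, against 863, 998 and 1036 in control rats. Its difference of 0.46 (SE 0.14) did not pass (limma adjusted p = 0.155). Ptpn6, a phosphatase that turns off JAK signalling, differed by -0.35 (SE 0.14, limma adjusted p = 0.239).

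Stat3, the main STAT factor downstream of interleukin 6, read 2462, 2429 and 2317 in ethanol rats, against 1948, 1978 and 2026 in control rats. That is a difference of 0.27 (SE 0.13, limma adjusted p = 0.313) with no overlap of the groups, but a second probe set of Stat3 had the opposite sign (-0.23). Socs3, a feedback inhibitor and a common readout of STAT3 activity, read 1313, 1152 and 1043 in ethanol rats, against 1279, 690 and 820 in control rats. Its groups overlapped (0.36, SE 0.23, limma adjusted p = 0.435).

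Of 11 tested genes of NF-kB, Ets and related factors, limma passed 0. Before adjustment, 0 were higher and 1 was lower with a p below 0.05, beside 7.66% and 11.2% of all tested genes. The list median was 0.12, and with an array left out it ran from -0.08, without ethanol replicate 1, to 0.09, so it has no settled sign. Nfkbia, the NF-kB inhibitor that NF-kB itself induces, read 882, 2658 and 1758 in ethanol rats, against 760, 1423 and 926 in control rats. Ethanol replicate 1 lay within the control range, unlike for Pim3, and the difference was 0.66 (SE 0.38, limma adjusted p = 0.392). It was 1.07 without ethanol replicate 1 and 0.30 without ethanol replicate 2, and passed in neither. Hif1a, a subunit of the hypoxia-inducible factor, differed by -0.47 (SE 0.20, limma adjusted p = 0.266) and the Ets factor Ets2 by -0.26 (SE 0.14, limma adjusted p = 0.363).

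Among reported substrates, 13 of 17 tested genes had a positive difference, beside 3450 of all 7106 tested genes. The list median was 0.18, beside -0.01 over all tested genes, and ran from 0.08 to 0.29 under the alternative settings. Limma passed 0 of the 17, and before adjustment 5 were higher and 0 lower with a p below 0.05. Over all tested genes 7.66% were higher and 11.2% lower by that measure. Diets lay apart for 2 with ethanol higher and 1 with ethanol lower, beside 11.0% and 15.4% of all tested genes. The list was chosen with earlier results of these data known and was not tested as a set. Cdkn1a, the cyclin-dependent kinase inhibitor p21, read 2695, 3107 and 3343 in ethanol rats, against 2160, 1836 and 1951 in control rats. Its groups did not overlap (0.61, SE 0.15, limma adjusted p = 0.108). The transcription factor Foxo1 read 560, 795 and 1065 in ethanol rats, against 574, 420 and 302 in control rats, with ethanol replicate 1 inside the control range (0.83, SE 0.27, limma adjusted p = 0.171). Foxo4, of the same family, differed by 0.44 (SE 0.16, limma adjusted p = 0.196).

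Myc, which Pim kinases stabilise and with which Pim1 cooperates in lymphoma, read 1100, 1550 and 1687 in ethanol rats, against 771, 1149 and 1005 in control rats. Ethanol replicate 1 was below control replicate 2 (0.54, SE 0.21, limma adjusted p = 0.227). Bad, the death factor that Pim phosphorylation inactivates, was at 838 ± 271 in ethanol rats and 800 ± 77.0 in control rats (SD, n = 3 each), a difference of 0.02 (SE 0.23). The chemokine receptor Cxcr4 differed by 0.33 (SE 0.28), with overlapping groups.

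In the list of mTORC1, cap-dependent translation and AMPK, limma passed 0 of 21 genes. Before adjustment, 2 were higher and 2 lower with a p below 0.05, beside 7.66% and 11.2% of all tested genes. The list median was -0.06. Both genes higher by that measure encode inhibitors of mTORC1. Ddit4 read 2801, 6494 and 6352 in ethanol rats, against 766, 1484 and 1138 in control rats. Every ethanol array exceeded every control array, yet the call was missed (2.11, SE 0.35, limma adjusted p = 0.0571). Without ethanol replicate 1 the difference was 2.50 and passed (limma adjusted p = 0.0168), and without each of the other 5 arrays it missed the call (limma adjusted p between 0.110 and 0.179). Sesn1, a sestrin, read 2126, 1931 and 2240 in ethanol rats, against 1045, 1343 and 770 in control rats (0.99, SE 0.20, limma adjusted p = 0.0858). Prkag1, a regulatory subunit of AMPK, differed by -0.82 (SE 0.24, limma adjusted p = 0.148). Eif4ebp1, the translation repressor that mTORC1 inactivates, differed by -0.33 (SE 0.17, limma adjusted p = 0.325).

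Genes that hold or remove Pim proteins likewise had differences of both signs. Limma passed 0 of 14 tested. Before adjustment, 2 were higher and 1 was lower with a p below 0.05, beside 7.66% and 11.2% of all tested genes. The list median was 0.14. Hspa1a, an inducible Hsp70, read 1260, 5847 and 6033 in ethanol rats, against 500, 980 and 729 in control rats. Its highest ethanol array was 4.79 times the lowest, where that ratio was 1.17 for Pim3. Its difference was 2.24 (SE 0.55, limma adjusted p = 0.108), and without ethanol replicate 1 it was 2.98 and passed (limma adjusted p = 0.0113). Without each of the other 5 arrays it was 1.87 to 2.46 and missed the call (limma adjusted p between 0.186 and 0.275). Probe sets of Hspa1a can also take up signal from its near-identical copy.

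The PP2A regulatory subunit Ppp2r2d read 242, 503 and 278 in ethanol rats, against 671, 686 and 764 in control rats (-1.01, SE 0.24, limma adjusted p = 0.101). It passed without ethanol replicate 2 (-1.29, limma adjusted p = 0.0471) and not without each of the other 5 arrays (-1.04 to -0.83, limma adjusted p from 0.152 to 0.269). Another PP2A subunit, Ppp2r5e, differed by 0.52 (SE 0.15, limma adjusted p = 0.146). Hsp90aa1, the inducible Hsp90, was not analysed here. Chosen after its values were seen, Hsp90ab1, the other Hsp90 gene of the list, differed by 0.06 (SE 0.14, limma adjusted p = 0.866). Its groups overlapped, and a second probe set had the opposite sign (-0.19).

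Other kinases of the calcium/calmodulin-dependent group, to which the Pim kinases belong, had differences of both signs, and limma passed 0 of 21. Before adjustment, 4 were higher and 5 lower with a p below 0.05, beside 7.66% and 11.2% of all tested genes. The list median was -0.10. Dapk3, a death-associated protein kinase, read 2245, 2888 and 2569 in ethanol rats, against 4031, 4525 and 3559 in control rats. Its groups did not overlap (-0.64, SE 0.16, limma adjusted p = 0.111). Its relative Dapk2 read 100, 536 and 603 in ethanol rats, against 1473, 1717 and 1095 in control rats (-1.92, SE 0.51, limma adjusted p = 0.125). Without ethanol replicate 1, the lowest, the Dapk2 difference was -1.23. Camk2b, a subunit of calcium/calmodulin kinase II, differed by 0.58 (SE 0.19, limma adjusted p = 0.173).

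Among Myc partners, Myc targets and cell cycle genes, 14 of 20 tested genes had a negative difference and 6 a positive one. Over all tested genes 3450 of 7106 had a positive one. The list median was -0.19. Wee1, which holds back entry into mitosis by phosphorylating Cdk1, read 353, 346 and 302 in ethanol rats, against 660, 678 and 730 in control rats. It fell (-0.95, SE 0.14, limma adjusted p = 0.0448). The call rested close to the threshold: with any 1 of the 6 arrays left out the difference ran from -0.98 to -0.89 and the limma adjusted p from 0.0534 to 0.187. The other 19 did not pass. Before adjustment, 0 of them were higher and 3 lower with a p below 0.05, beside 7.66% and 11.2% of all tested genes. Mxd4 and Mxi1, which compete with Myc for its partner Max, differed by -0.58 (SE 0.22, limma adjusted p = 0.223) and -0.39 (SE 0.16, limma adjusted p = 0.253).

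**Figure D3:**
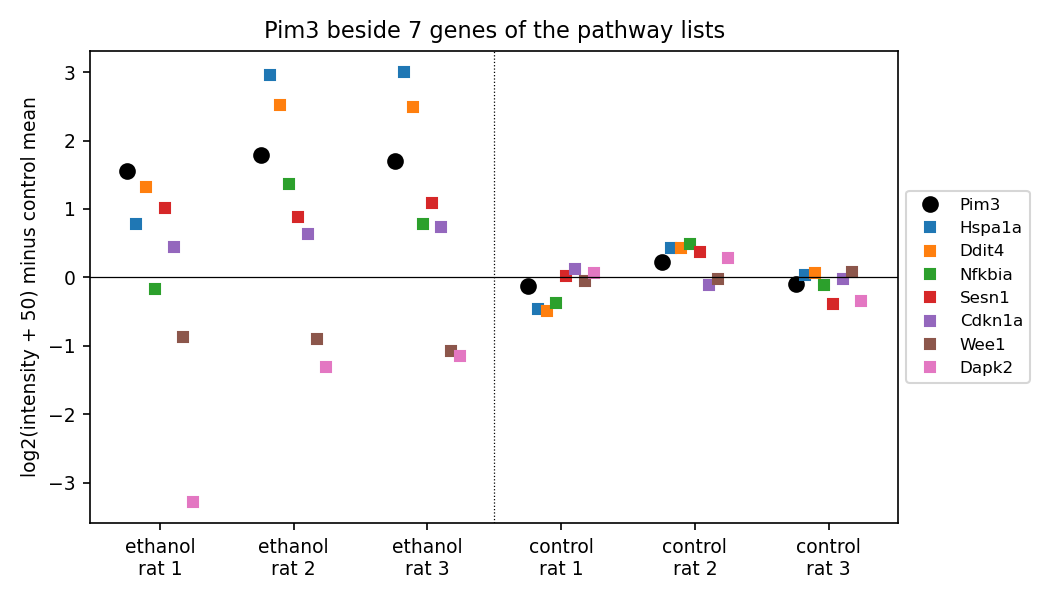
Log2(intensity + 50) minus the control mean for each of 3 ethanol rats (left) and 3 control rats (right), for Pim3 (black circles) and 7 genes of the lists chosen after their values were seen (squares). Among the ethanol rats Pim3, Hspa1a, Ddit4 and Nfkbia are all lowest in rat 1, with a ratio of highest to lowest intensity of 1.17 for Pim3 and 2.32 to 4.79 for the others.

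Set side by side, the ethanol rats were more alike in Pim3 than in several inducible genes of these lists. The ratio of the highest to the lowest ethanol array was 1.17 for Pim3, 1.16 for Sesn1, 1.17 for Wee1 and 1.24 for Cdkn1a. It was 2.32 for Ddit4, 3.01 for Nfkbia and 4.79 for Hspa1a, with ethanol replicate 1 the lowest of the 3 in each. Ethanol replicate 1 was also the lowest for Pim3 and Cdkn1a, by a smaller margin. Over all tested probe sets, not matched for intensity, the median of this ratio was 1.35. These genes were chosen after their values were seen, and the ratios were not tested.

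The genes most like Pim3 were ranked by Pearson's r of log2 values over the 6 arrays, among 7105 other tested genes. As the diets lie far apart in Pim3, a high r mainly says that a gene also separates the diets. In all, 45 genes had r above 0.95. The closest was Hapstr1, a regulator of stress responses, at r = 0.997. It read 1456, 1554 and 1567 in ethanol rats, against 874, 911 and 858 in control rats (0.76, SE 0.13, limma adjusted p = 0.0571). Next were Plod2, a collagen lysyl hydroxylase (r = 0.991), the ubiquitin ligase Ubox5 (0.984), the sodium channel subunit Scn3b (0.982), the transcription factor Klf15 (0.982), the GABA receptor subunit Gabrg1 (0.981), the proline synthesis enzyme Aldh18a1 (0.981) and Tatdn2 (0.979). All 8 were higher on every ethanol array than on any control array, as 11.0% of all tested genes were. Picking by r with Pim3 favours such genes, so nothing is read from it. The differences of these 8 ran from 0.25 for Tatdn2 to 0.81 for Klf15, so each was smaller than the 1.68 of Pim3. None of the 8 passed limma's test. Before adjustment 7 had a p under 0.05, where 7.66% of all tested genes had one with ethanol higher.

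With the diet means taken out, likeness to Pim3 spread widely over these 8 genes. The r of the deviations over the 6 arrays was 0.98 for Scn3b, which read 531, 606 and 555 in ethanol rats, against 308, 399 and 328 in control rats. Like Pim3, Scn3b was highest in replicate 2 of each diet. For Plod2 and Hapstr1 the r of deviations was 0.85 and 0.84, for Klf15 it was 0.29 and for Tatdn2 it was -0.08.

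**Figure D4:**
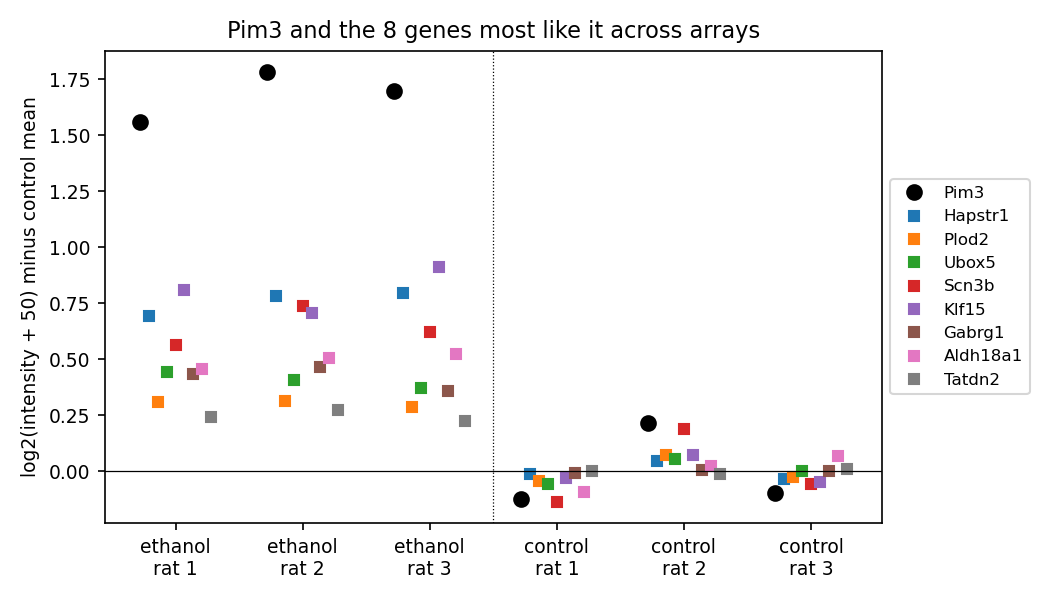
Log2(intensity + 50) minus the control mean for each of 3 ethanol rats (left) and 3 control rats (right), for Pim3 (black circles) and the 8 tested genes of highest Pearson r with it over the 6 arrays (squares). All 9 genes separate the diets, which picking by r with Pim3 favours, and Pim3 has the widest gap, 1.68 against 0.25 to 0.81.

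The genes most like Pim1 were, as Pim1 was, high in ethanol replicate 3 and low in ethanol replicate 2. They were Tmem183a (r = 0.985), the glycosyltransferase C1galt1 (0.982), Adam3a (0.981), the lens crystallin Cryba4 (0.976) and Gpr15lg (0.966), each over 6 arrays. In all, 10 of 7106 genes had r above 0.95. Picking by r with Pim1, itself dim, favours genes with its order of arrays, so nothing is read from the shared pattern. How many genes reach such an r by chance over 6 arrays was not computed. C1galt1 read 1406, 828 and 1853 in ethanol rats, against 1158, 1213 and 915 in control rats. The groups overlapped for all 5 genes, with diet differences from 0.09 to 0.24, and none passed limma's test (0 had an unadjusted p under 0.05). None of the 5 was among the 8 genes most like Pim3, which follows from the low r between Pim1 and Pim3 (0.33).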

How the data were processed

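The values deposited by the authors are array intensities, 1 per probe set and rat. No source used here gives the scanner, the software or how background and arrays were adjusted. The values themselves are whole, linear and background-subtracted, with 931 to 949 below 0 on each array, and already brought to nearly 1 distribution, which removes any difference in total RNA. Array medians differed by at most 0.00243 on the log2 scale, under the limit of 0.2, so no normalization was added. Of 15923 probe sets, 57 controls were left out. Negative values were set to 0, 50 was added and log2 taken, which understates differences of dim probe sets.

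The intensity filter kept probe sets from the 40th percentile of mean log2 value upwards (9520, of 7106 genes), tested with limma 3.58.1 in R 4.3.3 and Benjamini-Hochberg adjustment over all of them (called: adjusted p under 0.05). A gene was read on its brightest tested probe set with 1 symbol. The procedure was tested on simulated data. Differences are ethanol minus control, with limma's standard error. Replicates were read as separate rats. The labels number them within a diet and do not say whether RNA was pooled. The 3 arrays a diet limit the precision.

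The members, 7 pathway lists and 9 marker lists were chosen with earlier results of these data known. Genes named are the members, in each pathway list those called and the 3 of smallest p, 8 set by name, the 8 and 5 genes most like Pim3 and Pim1, and the 2 brightest markers of each list. Gene names follow the platform annotation, updated through RefSeq for 12748 of 12783 probe sets with 1 symbol. The promoter sequence is RefSeq's, from GRCr8. As alternatives, 20 or 100 was added in place of 50, arrays were quantile normalized or set to equal medians, and the filter was dropped or raised to the 60th percentile. The fit was also run with replicate number as a block, with a variance trend, with probe sets averaged and without each array in turn. Marker sums include dim probe sets, with negative values at 0.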

Additional observations from a re-analysis of the deposited data

How the results depend on the processing

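The Pim3 difference kept its direction under all 14 alternatives run on it (1.62 to 1.79). The Pim1 difference ran from -0.03, without ethanol replicate 3, to 0.60. Both genes have 1 probe set, so averaging probe sets changed nothing, and the planned Pim2 result was not run. The total of 39 called probe sets was 12 with a constant of 20, 134 with a filter at the 60th percentile, 249 with a variance trend, 0 without a filter (limma, 2263 at an unadjusted p under 0.05) and 2 to 38 with an array left out. With a replicate block it was 6. The labels do not say whether replicate numbers pair the rats. Deviations of same-numbered rats correlated at -0.03, 0.03 and -0.14, and not every rat correlated best with its own number. With 3 rats a diet these values cannot decide it, so the block is given as an alternative only. Under the block the 1 called gene of the pathway lists was Ddit4 (limma adjusted p = 0.0312) in place of Wee1 (0.140). The called genes of the pathway lists numbered 0 with a constant of 20 (limma, 31 at an unadjusted p under 0.05), 0 without a filter (30), 2 with a constant of 100, 3 with the filter at the 60th percentile, 7 with a variance trend, 2 with probe sets averaged, and 0 to 2 with an array left out. Where these counts moved, the cause was not tested. With an array left out, small differences changed sign for Bad (-0.20 to 0.26), Cryba4 (-0.14 to 0.34), Tmem183a (-0.030 to 0.22), C1galt1 (-0.0089 to 0.55) and Gpr15lg (-0.0068 to 0.55). List medians near 0 also changed sign: that of the cytokine and STAT list was 0.02 without control replicate 1, with probe sets averaged and with the filter at the 60th percentile, under which the NF-kB and Ets list was at -0.03 and the calcium/calmodulin-dependent kinases at 0.08. The mTORC1 list was at 0.05 without a filter. The NF-kB and Ets list was negative without ethanol replicate 1 (-0.08), ethanol replicate 3 (-0.04) or control replicate 3 (-0.0035). Low signal limits Pim1.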
